A study of Homo sapiens with 12 samples.

Results

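The early response to estradiol was measured in U2OS-ERα cells in which the coactivator SRC-1 had been left in place. The members are all probe sets of the array that carry exactly 1 gene symbol, 19460 of the 33297 listed, and they stand for 18417 genes. The comparison is between 3 arrays of cells given non-targeting siRNA and estradiol and 3 arrays of cells given non-targeting siRNA and vehicle. U2OS is a human osteosarcoma line that makes little estrogen receptor of its own, and the U2OS-ERα derivative carries added estrogen receptor α. In both groups a non-targeting siRNA pool (50 nM) was brought in with a cationic lipid and the cells were moved a day later to medium with 5% charcoal-stripped serum, from which steroids are largely removed, and were then given ethanol or estrogen (E2, 17β-estradiol) for 3 h. A further 6 arrays of the series, vehicle and estradiol after a siRNA pool against SRC-1, entered the fit for its estimate of spread and are set beside the response at the end. One supplied cell line and a single time point were used, and the receptor level is set by the engineered line. The arrays were Affymetrix Human Gene 1.0 ST arrays, whose values were read as log2 expression per probe set.

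Estrogen receptor α is a nuclear receptor. When estradiol binds, the receptor attaches to DNA either directly, at palindromic estrogen response elements, or through other factors such as AP-1 and Sp1, and recruits coactivators of the p160 family, of which SRC-1, encoded by NCOA1, is one. Genes that change within a few hours include direct targets, and breast cancer cells are where most of them have been studied.

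The arrays were closely matched in scale, with medians between 6.858 and 6.901 log2 and correlations across probe sets of 0.9976 to 0.9979 within the vehicle and estradiol groups. Lower quartiles lay at 5.13 to 5.19 log2, and a gene below it is not shown to exceed background. A group of 4203 probe sets, taken from their identifiers to be array controls and left out of all tests, did not behave alike in both groups. Their mean deviation was -0.039, -0.123 and -0.067 log2 in the vehicle arrays and -0.003, 0.032 and 0.068 in the estradiol arrays, with no overlap. Main counts, and calls that ended, are therefore also given with this array mean as a covariate, called the control covariate from here on. Its part in the results was otherwise not tested.

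In limma, 649 of the 19460 probe sets passed the study's threshold of an unadjusted p under 0.01 and an adjusted p under 0.05, which is 3.34%. Of these, 442 (2.27%) were higher with estradiol and 207 (1.06%) lower. They stand for 621 genes, 421 raised and 200 lowered, and 0 genes had probe sets called in both directions. With 1 probe set per gene, 2.28% of genes were higher and 1.08% lower, and these are the shares against which each group of genes is read below. The gene lists were written with earlier results of these data known, so an excess over these shares is no independent evidence. In all 649 the 3 arrays of one group lay beyond the 3 of the other, as they did in 23.1% of all 19460 probe sets.

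The response was lopsided in size as well as in number. The median increase among the called probe sets was 1.34-fold and the median decrease 1.25-fold. At least 2-fold changes were found in 48 probe sets, each of them an increase, and at least 1.5-fold changes in 136 increases and 12 decreases. Of the 649 calls, 374 were kept in each of the 12 fits that left out 1 array, 285 increases and 89 decreases, and 289 were kept with the control covariate, 223 increases and 66 decreases. All 48 of the largest increases were kept in the 12 fits, and 47 of them with the covariate. The decreases are thus the less firmly measured side.

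**Figure D1:**
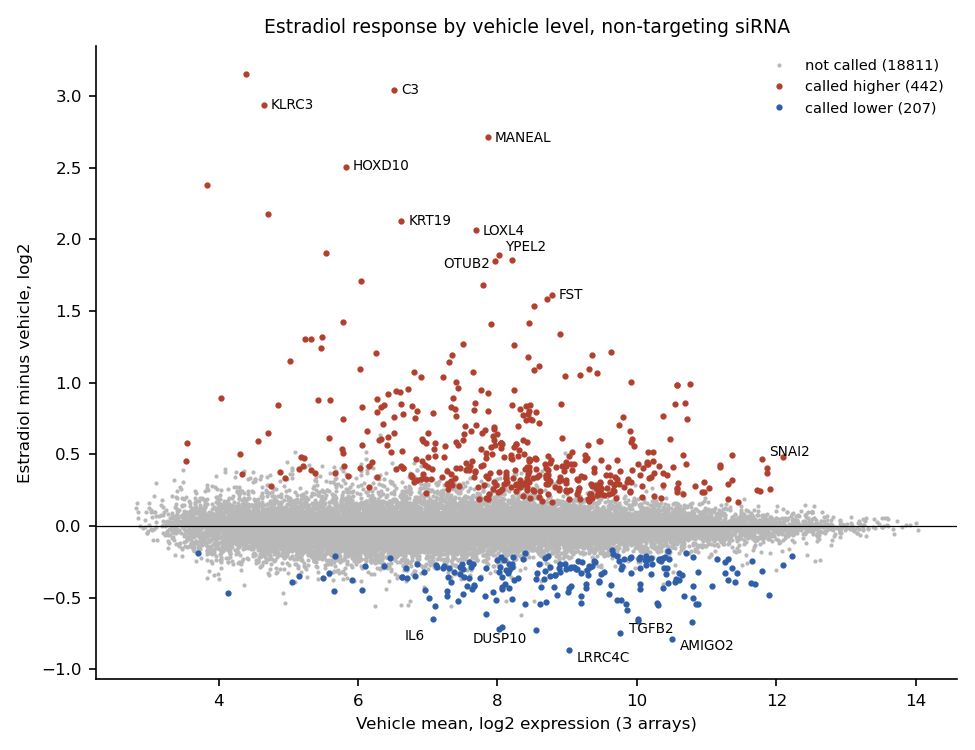
Estradiol minus vehicle (log2, vertical axis) against the mean log2 level in the vehicle arrays (horizontal axis), 1 point per probe set with 1 gene symbol, for cells with non-targeting siRNA. Called increases (442) reach 3.15 log2, whereas called decreases (207) reach -0.87.

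The receptor gene was not called. The main ESR1 probe set (8122843) read 12.18, 12.16 and 12.14 log2 in vehicle arrays and 12.15, 12.19 and 12.10 with estradiol, a difference of -0.02 (adjusted p = 0.918). NCOA1, the transcript of SRC-1, read 8.81, 8.72 and 8.83 against 9.15, 9.06 and 9.02, a difference of 0.29 ± 0.11 (SE) that was not called (adjusted p = 0.275), although the groups did not overlap. Of 40 measured estrogen receptors and coregulators, 1 rose and 1 fell, with a median of 0.00 log2. NRIP1, a corepressor that binds the hormone-bound receptor, rose by 0.42 log2 (adjusted p = 0.00324), a call that ended with the control covariate (0.0684). CITED2, which binds p300 and CBP, read 10.85, 10.76 and 10.76 in vehicle arrays and 10.09, 10.12 and 10.16 with estradiol, a fall of 1.59-fold.

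Among the largest increases were genes of secreted and cell-surface proteins and the keratin gene KRT19. C3, the central component of complement, read 6.34, 6.62 and 6.59 log2 in vehicle arrays and 9.41, 9.67 and 9.58 with estradiol. KRT19, a keratin of simple epithelia, read 6.70, 6.70 and 6.45 against 8.80, 8.82 and 8.62. In both genes the gap between the groups was many times the spread among the 3 arrays of either group. CMKLR1, a receptor for the chemoattractant chemerin, read 5.31, 5.52 and 5.79 against 7.49, 7.52 and 7.33 and so rose 3.75-fold (log2 1.91 ± 0.11 SE, adjusted p = 1.61e-06). The gene of chemerin, RARRES2, was at 6.70 and 6.68 log2 and was not called.

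VASN, a membrane protein that binds TGF-beta, rose 3.21-fold, from 7.78, 7.91 and 7.70 log2 to 9.54, 9.50 and 9.41. LPAR1, a receptor for lysophosphatidic acid, rose 2.68-fold, from 5.72, 5.69 and 5.94 to 7.37, 7.13 and 7.12. HTR2A, a serotonin receptor, rose 2.47-fold, from 5.01, 5.45 and 5.27 to 6.64, 6.37 and 6.63. Its vehicle level was close to the lower quartile (5.13 to 5.19) and in replicate 1 below it, so this fold is uncertain. CMKLR1 and LPAR1 thus went from below the array medians to above them in every array, and HTR2A stayed below them. HAVCR2, the immune checkpoint receptor TIM-3, rose 2.49-fold (log2 1.32 ± 0.11), and CST1, a secreted inhibitor of cysteine proteases, 2.37-fold (1.25 ± 0.14). SEMA3B, a secreted semaphorin, rose 2.31-fold but had the widest vehicle spread of these genes, at 5.85, 6.65 and 6.29 against 7.54, 7.56 and 7.30 (1.21 ± 0.18, adjusted p = 0.00337).

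Among intracellular proteins, MANEAL, an endomannosidase-like protein, read 7.93, 7.76 and 7.89 log2 in vehicle arrays and 10.61, 10.69 and 10.40 with estradiol. OTUB2, a deubiquitinase, read 7.97, 7.92 and 8.02 against 9.88, 9.75 and 9.81, which gave the smallest p of these genes (log2 1.85 ± 0.05 SE, adjusted p = 1.01e-08). SMOX, spermine oxidase, read 7.90, 7.94 and 7.90 against 9.28, 9.43 and 9.27, a rise of 2.66-fold. NLRP3, the sensor of the best-known inflammasome, read 8.62, 8.43 and 8.54 against 9.99, 10.20 and 10.01, a rise of 2.90-fold. YPEL2, a Yippee-like protein, read 8.01, 8.07 and 7.99 against 9.85, 10.04 and 9.85, a rise of 3.70-fold, while YPEL1, YPEL3, YPEL4 and YPEL5 were not called. These 5 raised genes were at moderate levels without hormone, and in each the nearest arrays of the groups were far apart against the spread within a group.

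Several of the raised genes act in transcription. RUNX3, a Runt-domain factor, rose 2.67-fold, from 8.41, 8.52 and 8.46 log2 to 9.86, 9.96 and 9.81, whereas its relative RUNX1 and their common partner CBFB differed by -0.09 and -0.07 and were not called. MXD1, a partner of MAX that opposes MYC, rose 2.99-fold, from 8.71, 8.68 and 8.74 to 10.24, 10.30 and 10.34. MAX itself was at 9.37 log2 in both groups, and MXI1, MXD3, MXD4, MNT and MLX were not called. MYC fell 1.3-fold, from 11.36, 11.27 and 11.31 to 10.85, 10.98 and 10.99. FOXK1, a forkhead factor, rose 2.00-fold, from 9.91, 9.91 and 9.94 to 10.95, 10.94 and 10.88, and TLE3, a Groucho-type corepressor, 1.63-fold (log2 0.71 ± 0.04). ZNF395, a zinc finger protein, rose by 1.27 log2 (adjusted p = 4.43e-08). Of 482 measured genes with a ZNF symbol, 7 were higher and 3 lower, and without vehicle replicate 2 or estradiol replicate 3 the count of higher members was 4.

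A trio of raised genes belongs to the movement of vesicles. SYTL5, a synaptotagmin-like Rab27 effector, rose from 4.88, 4.40 and 4.84 log2 to 6.81, 6.83 and 7.01. Its vehicle level was below the lower quartile and is not shown to exceed background, so no exact fold is given. KIF21A, a kinesin, rose 2.27-fold, from 8.44, 8.37 and 8.51 to 9.57, 9.60 and 9.70. SYBU, syntabulin, which links cargo to kinesin, rose 2.21-fold, from 7.45, 7.17 and 7.30 to 8.39, 8.39 and 8.57. The 3 were put side by side after their values were seen.

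**Figure D2:**
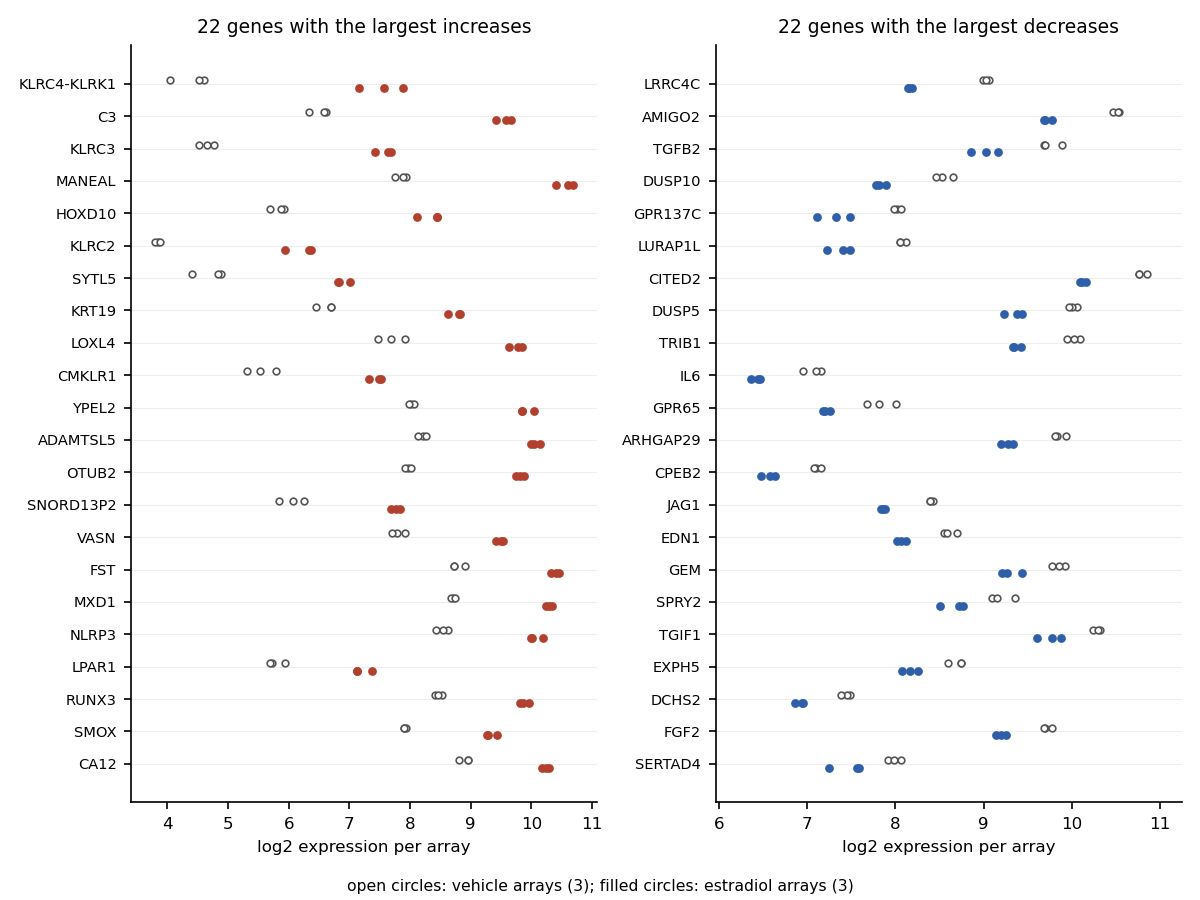
log2 expression per array for the largest called increases and the largest called decreases, 1 row per gene, with 3 vehicle and 3 estradiol arrays as points. In each row the 3 arrays of one group lie beyond the 3 of the other, and the gaps of the decreases are narrower than those of the increases (LRRC4C 0.87 log2 against 3.04 for C3).

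In a few places of the genome neighbouring genes rose together. The neighbouring natural killer receptor genes KLRC4-KLRK1, KLRC3 and KLRC2 read 4.04 to 4.61, 4.52 to 4.76 and 3.80 to 3.87 log2 in vehicle arrays and 7.16 to 7.88, 7.43 to 7.68 and 5.94 to 6.37 with estradiol. KLRC1, the next gene, rose by only 0.37 log2 and stayed below the lower quartile, with a call that ended with the covariate (adjusted p = 0.135). The KLRC genes are near copies of each other, so reads of one probe set may come from another gene. The vehicle levels of all the genes above are not shown to exceed background. The product of KLRD1 pairs with those of KLRC2 and KLRC3 at the surface of natural killer cells. KLRD1 was at 3.72 and 3.64 log2 and was not called.

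In the HOXD cluster, HOXD10 read 5.69, 5.93 and 5.87 log2 in vehicle arrays and 8.44, 8.11 and 8.44 with estradiol. Its neighbour HOXD11 read 6.76, 6.66 and 6.74 against 7.72, 7.70 and 7.63, a rise of 1.94-fold (adjusted p = 0.000385). HOXD1, HOXD3, HOXD4, HOXD8, HOXD9, HOXD12 and HOXD13 were not called. Of 27 HOX genes measured, 2 rose, both in this cluster, and HOXB2 fell 1.33-fold, from 9.31, 9.24 and 9.26 to 8.87, 8.89 and 8.84.

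Measured genes next to each other in RefSeq order formed 18361 pairs. How many pairs would be called together from the shares of all genes was not worked out. Of the pairs, 36 had both genes called, 23 both higher (the KLRC pairs among them), 6 both lower and 7 in opposite directions. Such pairs include KRT15 (0.65 log2) beside KRT19, RASA2 beside ZBTB38 (0.64 and 0.49), and EVI2A beside EVI2B (0.72 and 0.51, the call of EVI2B ending with the control covariate, adjusted p = 0.0754). EDN1, the endothelin-1 gene, fell 1.46-fold, from 8.70, 8.55 and 8.59 log2 to 8.12, 8.06 and 8.02, and its neighbour HIVEP1 by 0.29 (not called without vehicle replicate 1, adjusted p = 0.051, or estradiol replicate 1, 0.0568). ENPP2 rose beside CCN3, which fell (0.54 and -0.33). In 5 of the 23 pairs the genes overlap, among them PFKFB4 and UCN2 (0.56 and 0.80) and LIF and its antisense transcript LIF-AS2 (1.11 and 0.40). Whether the array tells their strands apart is not given in the sources used here. The calls of PFKFB4 (adjusted p = 0.139) and LIF-AS2 (0.18) ended with the control covariate.

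Genes that estrogen raises in breast cancer cells were often raised here too: 16 of 50 measured were higher (32.0%, against 2.28% of all genes) and 1 lower, with a median of 0.09 log2. Beside KRT19 and CA12, a carbonic anhydrase, these were FHL2, a LIM-domain cofactor, at 2.14-fold (9.40, 9.34 and 9.21 log2 against 10.41, 10.46 and 10.39), KCNK6, a potassium channel, at 1.93-fold, and MYB, a transcription factor, at 1.89-fold. GREB1, one of the best-known estrogen targets in breast cells, rose only by 0.40 log2, from 7.57, 7.56 and 7.55 to 7.95, 7.94 and 7.99. The other classic markers TFF1 and PGR were at -0.18 and -0.10 log2 and were not called, and neither were CCND1 (0.12), CTSD (0.15) and CXCL12 (-0.10). The list was partly written from genes known to have moved in these data, so its count is no independent evidence of direction.

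With the control covariate 11 of the list were higher. The calls of NRIP1, GREB1 (adjusted p = 0.14), TPBG (0.105), SERPINA1 (0.118) and RAPGEFL1 (0.259) ended. Of 20 measured genes that estrogen lowers in breast cancer cells, 2 were higher and 3 lower, with a median of -0.08 log2. Both shares were above those of all genes (2.28% and 1.08%). In 8 of the 20 all estradiol arrays lay below all vehicle arrays, and in 4 the reverse held. With the control covariate 1 of the 20 was higher and 2 were lower. The members that rose are MUC1, a membrane mucin, at 1.78-fold (7.30, 7.51 and 7.17 log2 against 8.13, 8.17 and 8.17), and the drug transporter ABCG2 (0.42 log2), whose call was lost without vehicle replicate 2 (0.0617) or estradiol replicate 1 (0.0579) or 3 (0.0659) and with the covariate (0.274).

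LRRC4C and AMIGO2, leucine-rich repeat adhesion proteins, were among the largest decreases. LRRC4C read 9.06, 8.99 and 9.03 log2 in vehicle arrays and 8.15, 8.19 and 8.14 with estradiol, and AMIGO2 10.47, 10.53 and 10.52 against 9.78, 9.69 and 9.70. ARHGAP29, a GTPase-activating protein, fell 1.5-fold, from 9.93, 9.83 and 9.81 to 9.33, 9.20 and 9.28. All of these genes were far above the lower quartile in every array. SEMA7A, a membrane-anchored semaphorin, fell 1.42-fold, from 10.81, 10.82 and 10.77 to 10.26, 10.39 and 10.25.

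Negative regulators of MAP kinase signalling and their relatives were often lower. Dual-specificity phosphatases dephosphorylate MAP kinases, Sprouty proteins restrain receptor signalling upstream of RAS, and Tribbles are pseudokinases that bind MEK and the ubiquitin ligase COP1. Of 42 measured members, 9 were lower (21.4%, against 1.08% of all genes) and 4 higher. This list, too, was written with earlier results of these data known. DUSP10 read 8.53, 8.46 and 8.65 log2 in vehicle arrays against 7.78, 7.81 and 7.89 with estradiol, and DUSP5 10.06, 10.00 and 9.97 against 9.38, 9.44 and 9.23. TRIB1 read 10.09, 10.02 and 9.94 against 9.33, 9.42 and 9.35. In each of the 3 genes the lowest vehicle array was clearly above the highest estradiol array. Of 23 dual-specificity phosphatases, 4 fell, DUSP1 (-0.39) and DUSP14 (-0.29) being the others, and 0 rose.

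SPRY2, a Sprouty protein, fell by 0.54 log2, from 9.36, 9.10 and 9.15 to 8.72, 8.77 and 8.50 (adjusted p = 0.009). Other members rose. RASA2, a RAS GTPase-activating protein, rose by 0.64 log2, from values between 7.95 and 8.04 to 8.58, 8.58 and 8.75, and ERRFI1, an inhibitor of the EGF receptor kinase, by 0.41, from 11.22, 11.18 and 11.19 to 11.63, 11.68 and 11.51. RGS4, which shortens G protein signals, rose by 0.75, from 8.61, 8.35 and 8.44 to 9.23, 9.23 and 9.19. With the control covariate 4 members were lower and 2 higher: the calls of SPRY2 (0.19), RGS4 (0.0714), LRIG3 (0.0563) and DUSP14 (0.163) were among those that ended. DUSP14 also lost its call without vehicle replicate 3 (0.0565).

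Growth factor genes leaned the same way, with 9 of 70 lower (12.9%) and 3 higher. TGFB2, a TGF-beta ligand, read 9.68, 9.89 and 9.70 log2 against 9.16, 9.03 and 8.86, and FGF2, basic fibroblast growth factor, 9.70, 9.68 and 9.77 against 9.25, 9.20 and 9.14 (-0.52 ± 0.07 SE, adjusted p = 0.00148). FGF5 fell from 9.58, 9.47 and 9.53 to 9.14, 9.28 and 9.20 (-0.32). TGFA, a ligand of the EGF receptor, went the other way, from 6.58, 6.67 and 6.53 to 7.45, 7.65 and 7.49 (0.93 ± 0.07, adjusted p = 8.76e-06). CSF1, the macrophage growth factor, rose from 8.98, 8.92 and 8.83 to 9.76, 9.87 and 9.66, and VEGFA, the main angiogenic factor, from 9.22, 9.13 and 9.24 to 9.54, 9.57 and 9.53. The 3 increases were kept with the control covariate, and of the 9 decreases TGFB2, FGF5 and BDNF were, whereas the call of FGF2 ended (0.057). Without estradiol replicate 2 or 3 the count of lower members was 5. BDNF (-0.44) lost its call without vehicle replicate 1 (0.058) or 3 (0.0626) or estradiol replicate 3 (0.0586).

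**Figure D3:**
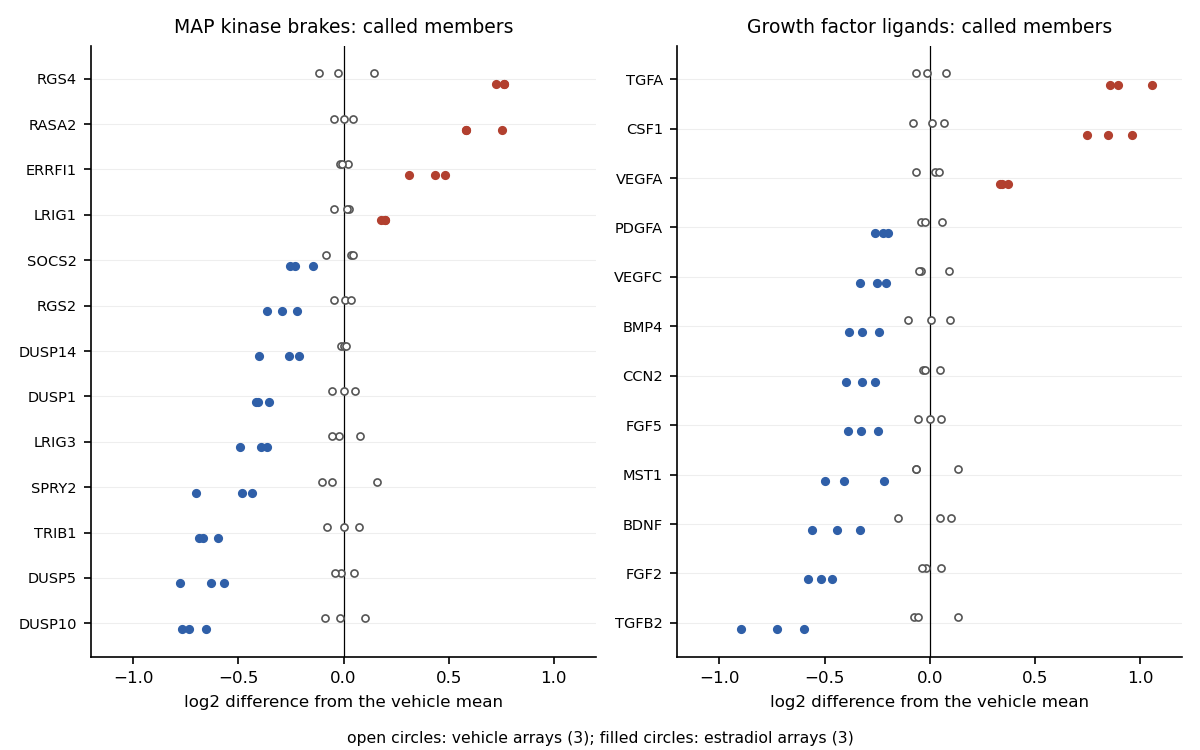
log2 difference from the vehicle mean in each of the 3 vehicle and 3 estradiol arrays for the called MAP kinase brakes and the called growth factor ligands, 1 row per gene. Decreases outnumber increases in both panels (9 against 4, and 9 against 3).

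Of 56 measured receptor tyrosine kinases and ephrins, 3 were higher (5.36%) and 3 lower (5.36%). Without vehicle replicate 3 or estradiol replicate 2 these counts were 1 and 2, and with the control covariate 2 and 1. EFNB1, an ephrin, rose by 0.34 log2 (adjusted p = 0.00133), while EFNA1, another ephrin, fell by 0.36 (0.00503) and FGFR2 by 0.30 (0.00447, and 0.0754 with the covariate). EGFR (-0.10) and IGF1R (0.03) were not called.

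Immediate-early genes are switched on by many stimuli without new protein synthesis. The list of immediate-early and feedback transcription factors split evenly: 12 of 60 were higher (20.0%) and 13 lower (21.7%), so that the median was -0.01 log2. Those that rose include ZFP36, which speeds decay of AU-rich transcripts (7.35, 7.40 and 7.47 log2 against 8.45, 8.54 and 8.25), SNAI1, a zinc finger repressor of epithelial genes (8.28, 8.24 and 8.10 against 9.04, 9.13 and 8.98), and FOSL2, an AP-1 subunit (10.42, 10.36 and 10.32 against 11.17, 11.19 and 11.06). CEBPB, a leucine zipper factor, rose 1.5-fold and SNAI2, the relative of SNAI1, 1.38-fold from one of the highest levels among called genes (11.79 to 12.26). FOS and JUNB, 2 of the genes most used as immediate-early readouts, were at 0.01 and 0.08 log2 and were not called.

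Among those that fell, ZFP36L1 belongs to the same family as ZFP36 and fell 1.39-fold, from 11.92, 11.91 and 11.87 log2 to 11.36, 11.44 and 11.46. KLF5, a Krüppel-like factor, fell 1.43-fold, from 9.88, 9.70 and 9.73 to 9.30, 9.26 and 9.20, and GEM, a small GTPase, 1.46-fold, from 9.92, 9.77 and 9.85 to 9.21, 9.43 and 9.27. ID1, an inhibitor of helix-loop-helix factors, fell 1.32-fold. Without vehicle replicate 1 or 3 the count of lower members was 8. With the control covariate 6 members were higher and 5 lower. EGR1 (0.56 log2), MAF (0.42) and JUND (0.35) were among the increases whose calls ended (adjusted p = 0.14, 0.0724 and 0.0802), and KLF6 (-0.43) and NR4A2 (-0.51) among the decreases (0.092 and 0.0953).

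Inflammatory genes also moved both ways, with 7 of 60 cytokines, chemokines and NF-kB targets higher (11.7%) and 3 lower (5.0%). LIF read 8.73, 8.55 and 8.51 log2 against 9.70, 9.85 and 9.58, whereas IL6, a cytokine that shares the signalling receptor gp130 with LIF, read 7.16, 6.95 and 7.10 against 6.44, 6.36 and 6.46. The gene of gp130, IL6ST (11.30 and 11.26), and that of the LIF receptor, LIFR (9.52 and 9.58), were not called. IL6R, the gene of the receptor that binds IL6, was called. It rose by 0.25, from 9.43, 9.41 and 9.47 to 9.64, 9.72 and 9.69 (limma adjusted p = 0.0158). PTGS2, cyclooxygenase-2, rose from 7.75, 7.54 and 7.65 to 8.71, 8.82 and 8.63. TNIP1 and BCL3, which restrain or redirect NF-kB, rose by 0.49 and 0.47. TNFRSF11B, the decoy receptor osteoprotegerin, and NFKBIZ, an atypical IκB, each fell by 0.42. CXCL8 was at 0.45 log2 but was not called (adjusted p = 0.156). Of 38 interferon-stimulated genes, 1 rose, the exonuclease gene ISG20, and the median was -0.08.

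Of 68 genes of complement and clotting, 4 were higher, C3 among them, and 1 lower. Without vehicle replicate 3 or estradiol replicate 1 the count of higher members was 2. F13A1, the clot-crosslinking factor XIII subunit, rose from 4.94, 5.24 and 4.87 log2 to 6.14, 6.10 and 6.26. Its vehicle mean was below the lower quartile and is not shown to exceed background, so no exact fold is given. PLAU, urokinase, fell by 0.43, a call that ended with the covariate (adjusted p = 0.055). SERPINA1 (0.38) and BDKRB1 (0.43) were the other increases. SERPINA1 lost its call without vehicle replicate 3 (0.0615) or estradiol replicate 1 (0.0561) or 3 (0.0608), and BDKRB1 without vehicle replicate 2 (0.0638) or 3 (0.0697) or estradiol replicate 1 (0.0671) or 2 (0.0726).

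In the TGF-beta, activin and BMP pathways 1 of 40 was higher and 3 lower. FST, the activin-binding protein follistatin, rose from 8.91, 8.72 and 8.72 log2 to 10.46, 10.40 and 10.33, while the activin subunit genes INHBA and INHBB were not called. TGIF1, a corepressor of SMADs, fell in 4 separate probe sets by 0.53 to 0.55 log2, and these calls ended with the covariate (adjusted p = 0.0508 to 0.0852). SMAD6, an inhibitory SMAD, fell by 0.29, and TGFBR2, the type II receptor, by 0.32 (0.115 with the covariate). In the Wnt and Notch pathways, 2 of 74 were higher (2.7%) and 2 lower (2.7%). JAG1, a Notch ligand, fell from 8.43, 8.39 and 8.39 to 7.84, 7.86 and 7.88 (-0.55 ± 0.05 SE, adjusted p = 0.000114), MAML2, a Notch coactivator, fell by 0.32, and MFNG, a glycosyltransferase that modifies Notch, rose by 0.40.

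Genes of matrix crosslinking and remodelling were more often higher, 5 of 73 (6.85%) against 2 lower. The matrix proteins themselves were not: of 68 collagens and matrix proteins 1 rose, THBS1, at 0.37 log2. LOXL4, a lysyl oxidase, read 7.68, 7.91 and 7.47 log2 against 9.78, 9.84 and 9.63, and LOX 9.39, 9.41 and 9.27 against 10.55, 10.55 and 10.53. LOXL1, LOXL2 and LOXL3 were not called. ADAMTSL5, a secreted ADAMTS-like protein, rose from 8.22, 8.14 and 8.27 to 10.00, 10.14 and 10.05, and TIMP3, a metalloproteinase inhibitor bound to matrix, from 9.06, 8.97 and 8.86 to 10.13, 9.99 and 9.92. TGM2, tissue transglutaminase, rose by 0.40 from one of the highest levels of the called genes (11.87 to 12.27). All 5 increases were kept with the covariate, where limma called 0 of the list lower. The count of lower members was also 0 without vehicle replicate 1 or 3 or estradiol replicate 2 or 3. HAS2, hyaluronan synthase, was at -0.55 and was not called (adjusted p = 0.0793).

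Genes of enzymes that build sugar chains leaned lower. Of 68 glycosyltransferases of the sialyl, fucosyl, GalNAc and related families, 4 fell and 1 rose, and all 4 decreases are sialyltransferases. ST6GALNAC5 fell from 9.26, 9.26 and 9.28 log2 to 8.82, 8.86 and 8.81 and in its other probe set too, whereas B4GALT1, a galactosyltransferase that acts before sialylation, rose 1.70-fold, from 9.83, 9.74 and 9.84 to 10.56, 10.53 and 10.59. The remaining decreases, of ST3GAL1 (-0.29), ST3GAL5 (-0.44) and ST3GAL6 (-0.35), were less firm: the calls of the first pair ended with the covariate (adjusted p = 0.0502 and 0.207), and ST3GAL5 lost its call without estradiol replicate 3 (0.0605). ST3GAL6 kept its call with the covariate, and lost it without any single array of the vehicle group (0.0545 to 0.107) and without estradiol replicate 1 or 2 (0.105 and 0.0986).

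Among adhesion proteins, SLITRK4, a synaptic leucine-rich repeat protein, rose 1.90-fold, from 7.96, 7.73 and 7.92 log2 to 8.77, 8.78 and 8.84, in contrast to LRRC4C and AMIGO2 of the same repeat class. In all, 2 of 73 integrins, cadherins and leucine-rich adhesion proteins were higher and 3 lower. CLDN1, a tight junction claudin, fell 1.3-fold, and 3 of 54 keratin and junction genes rose, KRT19, KRT15 and MUC1.

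Of 39 measured genes of glucose use and hypoxia, 6 were higher (15.4%) and 1 lower. PFKFB3, which makes the activator of phosphofructokinase, read 9.51, 9.41 and 9.49 log2 against 10.05, 10.10 and 10.03, and the glucose transporter gene SLC2A1 11.37, 11.41 and 11.32 against 11.89, 11.89 and 11.79. HK1, hexokinase 1, rose by 0.29. Another glucose transporter gene, SLC2A3, fell by 0.40 (adjusted p = 0.00256, and 0.0751 with the covariate). HK2 (-0.04), LDHA (-0.05) and GAPDH (-0.03) were not called. PDK4, which holds back pyruvate oxidation, rose by 0.62, from 6.38, 6.42 and 6.49 to 7.07, 7.10 and 6.98.

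Genes on either side of lysophosphatidic acid rose. Besides its receptor gene LPAR1, PLPP3, a phosphatase that degrades it outside the cell, read 9.40, 9.40 and 9.49 log2 against 10.49, 10.54 and 10.47, a rise of 2.10-fold (adjusted p = 9.19e-08). ENPP2, autotaxin, which makes it, read 5.75, 5.77 and 5.80 against 6.46, 6.23 and 6.25 (0.54 log2, adjusted p = 0.00887), a call that ended with the covariate. LPAR2 and LPAR3 were not called. This trio was put together after its values were seen. In the list of fatty acid and glycerolipid genes, 4 of 53 were higher and 0 lower by limma (11 at an unadjusted p under 0.05), and in cholesterol synthesis 0 of 23 were higher and 2 lower (8 at an unadjusted p under 0.05). The 4 became 2 without vehicle replicate 1 or 2 or estradiol replicate 1 or 2, and 2 with the covariate. The 2 decreases in cholesterol synthesis became 1 without vehicle replicate 1 and 0 by limma without vehicle replicate 3 or estradiol replicate 1 or 3, and 0 with the covariate, where 6 had an unadjusted p under 0.05.

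Kinases and inhibitors that respond to serum or stress were among the groups with the most increases, 7 of 45 (15.6%), with 2 lower. PLK2, a Polo-like kinase, read 9.64, 9.55 and 9.71 log2 against 10.90, 10.82 and 10.82, and PIM1, a survival kinase, 8.48, 8.48 and 8.37 against 9.22, 9.23 and 9.22. SGK1 rose by 0.48 and MAP3K14, the NF-kB-inducing kinase, by 0.45. CDKN1A (0.37) and HIPK2 (0.31) also rose, and their calls ended with the covariate (adjusted p = 0.0823 and 0.197). Few cell cycle genes were called at 3 h: limma called 0 of 46 G2/M genes, whose median was 0.02 log2, and of 47 G1/S genes, with a median of 0.05, it called E2F7 alone, a repressor of E2F targets (11.11, 11.03 and 11.09 against 10.61, 10.70 and 10.67). Of the G2/M genes 4 had an unadjusted p under 0.05, and differences over the list ranged from -0.10 to 0.14. Of the G1/S genes 13 had an unadjusted p under 0.05. In 19 of the 47 all estradiol arrays lay above all vehicle arrays and in 1 the reverse held. Over all probe sets with 1 symbol these shares were 11.1% and 12%. The list thus had a larger share above and a smaller share below.

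Among 34 other nuclear receptors, 3 were higher and 2 lower. The count of higher members was 1 without vehicle replicate 3 or any 1 of the estradiol arrays, and 1 with the control covariate, where limma called 0 lower (9 of the 34 had an unadjusted p under 0.05 in either direction). The count of lower members was 1 without vehicle replicate 2 or 3 or estradiol replicate 2 or 3. NR1D1, the circadian repressor REV-ERBα, rose 1.74-fold, from 8.49, 8.47 and 8.38 log2 to 9.18, 9.29 and 9.27. THRA, which overlaps it on the genome, was not called. The osteoblast and bone genes of this bone-derived line gave 0 of 32 higher and 2 lower, TNFRSF11B and BMP4. BMP4 (-0.32) lost its call without vehicle replicate 2 (0.0933) or 3 (0.082) or estradiol replicate 2 (0.101) or 3 (0.0822) and with the covariate (0.225).

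**Figure D4:**
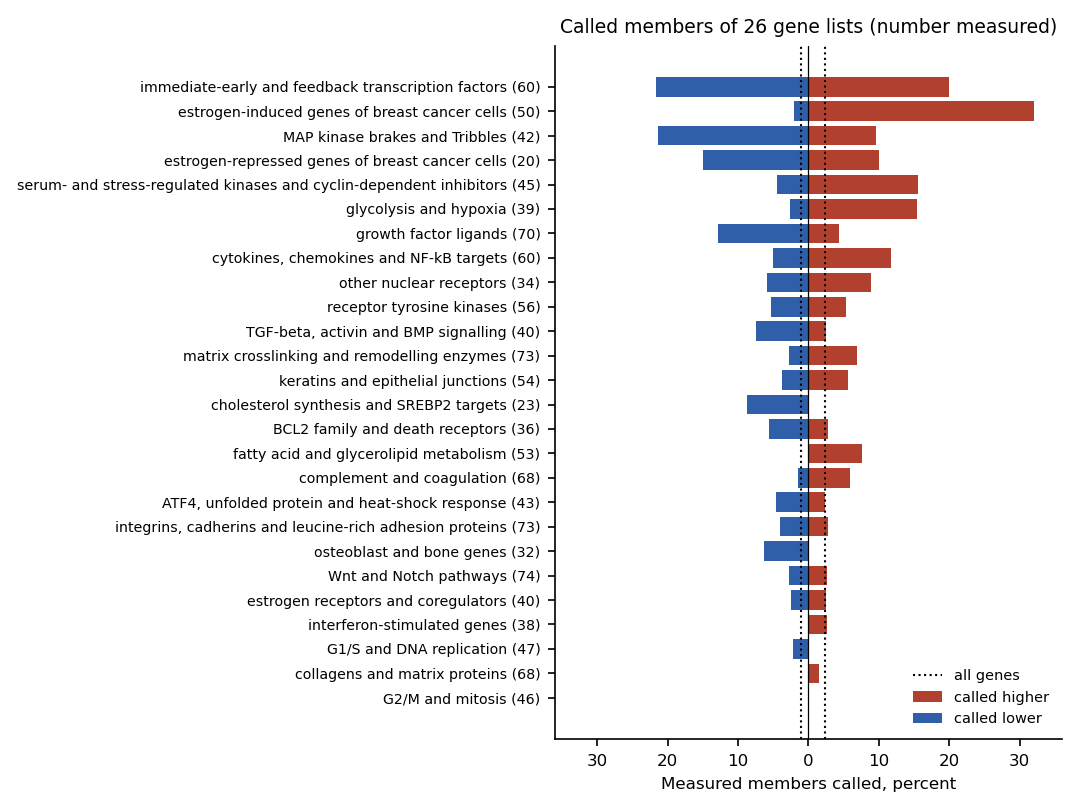
Share of measured members called higher (to the right) and lower (to the left), in percent, for 26 gene lists, with the number measured in brackets. Shares of all genes were 2.28% and 1.08%. Farthest from these stand estrogen-induced genes of breast cancer cells (32.0% higher) and immediate-early and feedback transcription factors (20.0% higher, 21.7% lower). The lists were written with earlier results of these data known.

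Of 359 solute carriers 11 were higher and 5 lower, and of 54 TRIM genes and of 82 ribosomal protein genes limma called 0 (3 of each had an unadjusted p under 0.05). Of 341 olfactory receptor genes, 238 of which lay below the lower quartile, 1 was higher and 2 lower. Calls were rarest where signal was lowest: in 5 bins of equal size by mean level, 0.694% of the lowest and 1.7% of the next were called, against 5.65% of the second highest and 4.7% of the highest. Of 769 genes with several probe sets, 25 had a called one. In 12 of these all their probe sets were called the same way, and in 13 only some were.

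Small nucleolar RNAs guide modification of ribosomal RNA from within introns of host genes. Genes with their symbols were called only upward, 8 of 176, with a median of 0.07 log2. SNORD13P2, a pseudogene by its symbol, rose 3.27-fold, from 6.07, 5.84 and 6.25 log2 to 7.68, 7.84 and 7.77. It lies inside FOXK1, which rose 2.00-fold. SNORD43 rose from 8.44, 8.46 and 8.46 to 8.78, 8.79 and 8.94 inside RPL3, a gene that was not called, with both means at 13.1 log2. SNORD14E (0.55) lies inside HSPA8, also not called (13.8 in both groups). With the control covariate limma called 0 of the 176, with 20 at an unadjusted p under 0.05, and the adjusted p was 0.0558 for SNORD13P2 and 0.0678 for SNORD43. The count also went with single arrays, to 3 without estradiol replicate 2, 4 without estradiol replicate 3 or vehicle replicate 2, 5 without vehicle replicate 3 and 12 without estradiol replicate 1. SNORD14E also lost its call without vehicle replicate 2 (0.0572) or 3 (0.0646) or estradiol replicate 2 (0.0536).

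Of 179 microRNA genes 2 were called, both higher (1.12%, a smaller share than the 2.28% of all genes). Both encode members of one seed family, and their mature strands are shown to make this visible. The seed, bases 2 to 8, is in capitals and the sequences are those of RefSeq for GRCh38.p14.
hsa-miR-15a-5p: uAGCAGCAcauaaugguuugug
hsa-miR-15b-5p: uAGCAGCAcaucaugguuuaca
The 2 strands share the seed AGCAGCA and come from separate loci. The MIR15A probe set read 5.45, 5.28 and 5.21 log2 in vehicle arrays and 5.70, 5.57 and 5.85 with estradiol (0.39, adjusted p = 0.0257), and MIR15B 3.64, 3.46 and 3.53 against 3.94, 4.01 and 4.03 (0.45, adjusted p = 0.014), the latter below the lower quartile throughout. Their host genes DLEU2 and SMC4 were at 0.07 and 0.02 and were not called. The array measures the gene region and not the mature strand. Both calls ended with the covariate (0.378 and 0.144) and in 4 fits each that left out 1 array. For MIR15A those were vehicle replicate 2 (0.0972) or 3 (0.11) and estradiol replicate 1 (0.0756) or 3 (0.0999). For MIR15B they were vehicle replicate 2 (0.0652) or 3 (0.059) and estradiol replicate 2 (0.0582) or 3 (0.0629).

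Few markers of cell types were called. In vehicle arrays VIM and SPARC, the 2 mesenchymal markers of highest mean, were at 12.44 and 12.58 log2. KRT8 and KRT18, the 2 epithelial markers of highest mean, were also high, at 11.14 and 11.93. Other members were lower, such as ALPL of the mesenchymal list at 7.73. Of 12 mesenchymal markers limma called 0 (1 at an unadjusted p under 0.05), and their summed level was 14.49 to 14.52 log2 in vehicle and 14.43 to 14.49 in estradiol arrays. Of 11 epithelial markers limma called 0 (4 at an unadjusted p under 0.05, summed level 12.72 to 12.77 and 12.74 to 12.75). Of 11 leukocyte markers, 3 of them below the lower quartile, LYZ rose by 0.89, from 3.98, 4.11 and 4.02 to 5.00, 4.91 and 4.88, still below that quartile (summed level 11.08 to 11.13 and 11.03 to 11.12). Of 10 endothelial markers ERG, an ETS factor, rose by 0.57, from 7.95, 7.99 and 7.94 to 8.52, 8.55 and 8.51, and the summed level went from 9.73 to 9.82 to 9.91 to 9.95 without overlap.

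Promoter sequences were searched because direct receptor binding would be at an estrogen response element. For 14237 of the 18417 genes RefSeq promoters of GRCh38.p14 were at hand, 250 bases before to 50 after a start, 20107 windows in all. Of the 617 called genes, 464 had such a promoter. C3, KRT19, KLRC2, SMOX, GREB1, LRRC4C and DUSP5 had none and were not searched. The full palindrome GGTCANNNTGACC, read on both strands, was in 0.0249% of all windows (5) and in 0 of the 505 windows of raised and the 271 of lowered genes. Its single arm GGTCA, which is also part of the palindrome, was in 35.3% of all windows, 33.1% of those of raised genes and 28.4% of those of lowered genes. The AP-1 site TGANTCA was in 6.1%, 7.72% and 9.59%, and the Sp1 site GGGCGG in 57.3%, 59.4% and 61.6%. These letters are a description and not sites of binding. Distal elements, where much receptor binding occurs, lie outside such windows.

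With 1 mismatch allowed, 125 of all windows (0.622%) held the element, 5 of the raised genes (0.99%) and 0 of the lowered genes. Those 5 are shown with the element in capitals, 5′ to 3′ in the direction of the match, with flanking bases in lower case, since they are the closest matches among the raised genes.
ADAMTSL5: cctgccaaGGTCACCCGGACCcgggcgcc
ADGRG1: cacctaagGGTCAGGTTGGCCcctgcaag
LAPTM5: gcagagaaGGGCATGATGACCgtgttagg
LRRC38: cggagcagAGTCAGAGTGACCcaggtccc
LRIG1: tctcgcctGGGCACTGTGACCtgctcctg
Counted from 1 at the first base of the element, they differ from it by T9G, A11G, T3G, G1A and T3G, in that order. The matches lie 221, 135, 238, 147 and 203 bases before the start, at chr19:1513220-1513248 on the minus strand, chr16:57619903-57619931 on the plus strand, and chr1:30757992-30758020, chr1:13514130-13514158 and chr3:66405950-66405978 on the minus strand. ADAMTSL5 rose by 1.86 log2, ADGRG1, an adhesion G protein-coupled receptor, by 1.09 and LAPTM5, a lysosomal membrane protein, by 0.94. LRRC38 (0.51) was not called with the control covariate (adjusted p = 0.0531), and neither was LRIG1 (0.19, 0.296), which also lost its call in 9 of the 12 fits without 1 array (0.0566 to 0.161).

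Finally, the response was set beside that of cells given SRC-1 siRNA, which were compared with their own vehicle arrays. In those cells NCOA1 read 6.18, 5.62 and 5.78 log2 with vehicle and 6.79, 6.88 and 6.92 with estradiol (limma adjusted p = 0.00029). The transcript was thus not at one level across the groups with SRC-1 siRNA. Of the 649 calls, 526 were also called there in the same direction, 386 increases and 140 decreases, where 7.01% of probe sets with 1 symbol were called. Of the others, 123 were not called, and 0 were called in the opposite direction. The difference between the responses was called for 0 of all probe sets (0.0%) by limma, with 1226 of the 19460 at an unadjusted p under 0.05, and with a trended and robust variance for 2, FST and LOX.

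Intervals of the difference covered 0 for 542 of the 649, with a median width of 0.18 log2 to either side. The differences of the 4 genes given next were not called by the fit. FST rose by 1.61 with non-targeting and 0.98 with SRC-1 siRNA, a difference of 0.64 (95% interval 0.44 to 0.83), and LOX by 1.19 and 0.79, a difference of 0.40 (0.26 to 0.55). KRT19 differed by 0.57 (0.31 to 0.84). PDK4 rose less with non-targeting siRNA, 0.62 against 1.02, a difference of -0.40 (-0.56 to -0.24). The genes were selected on the response with non-targeting siRNA, which favours larger values on that side, and these single genes were chosen after their values were seen.

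**Figure D5:**
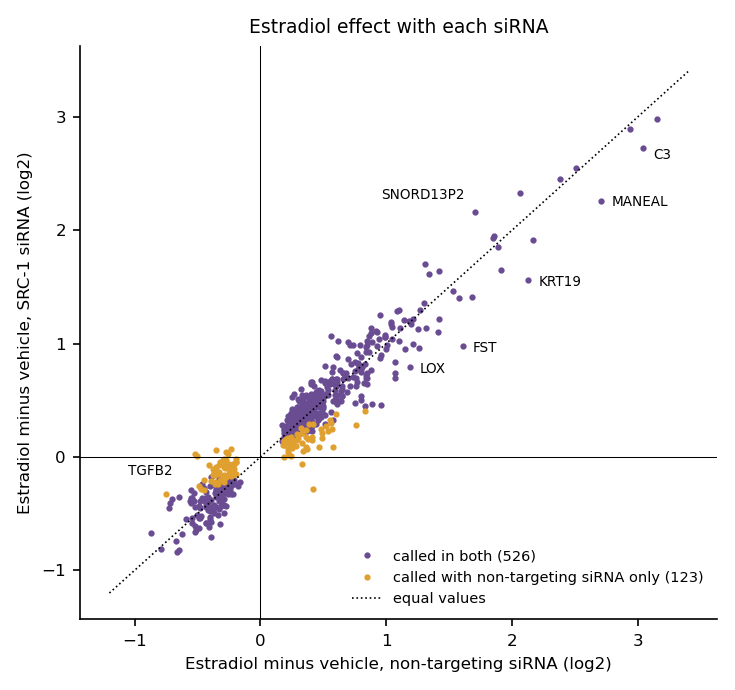
Estradiol minus vehicle (log2) with SRC-1 siRNA (vertical axis) against the same with non-targeting siRNA (horizontal axis) for the 649 called probe sets, 1 point each. Of these, 640 have the same sign on both axes, and FST (1.61 and 0.98) and LOX (1.19 and 0.79) lie below equality.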

How the data were processed

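Each deposited value is a log2 expression level of 1 probe set, made by the authors from the scanner files with the affy package, and the authors tested with limma, per the series' design text. No versions, background correction, normalization or summarization are given in the sources used here, and the values were used as deposited. Replicates are those the labels number 1 to 3 in each group, and p-values measure the spread among them. Arrays have no sequencing depth, and their number limits the precision: the median standard error was 0.0651 log2 over probe sets with 1 symbol.

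The table lists 33297 probe sets, and 4203 whose identifiers come before 7896740, where named genes begin, were left out as presumed controls, an inference from the identifiers. The other 29094 were tested: 19460 carry 1 gene symbol in the platform annotation, 1754 several and 7880 none. Entrez identifiers matched the human reference for 19429, and 0 symbols changed.

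The fit, in limma 3.58.1 under R 4.3.3, had 1 mean for each of the 4 groups of all 12 arrays (residual degrees of freedom 8, prior 3.15), and p-values were adjusted by Benjamini-Hochberg over the 29094. Tests are two-sided. A call needs an unadjusted p under 0.01 and an adjusted p under 0.05, the design text's threshold. Adjusted p-values in the text are limma's. Fold sizes are 2 to the power of the log2 difference. Gene lists (26, and 4 of markers; 1 more is not reported here) and symbol families were described by counts and medians with 1 probe set per gene, the one of highest mean, and were not tested. Tables were made with Python 3.11.15.

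The members and lists were chosen with earlier results of these data known. Named genes are NCOA1 and ESR1, the 25 highest and 25 lowest called differences, up to 5 called members in each direction per list or family (or the 2 of highest mean where none is called) and the 10 called probe sets of highest vehicle mean in each direction. Partner genes and relatives that were not called, IL6R, and genes named for their neighbours or promoters were added after their values were seen. So were the lysophosphatidic acid and vesicle genes and other members of lists.

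Alternatives were a replicate block, the 6 compared arrays alone, leaving out the lowest 40% of probe sets, array weights, median centring, another round of quantile normalization, a variance that is trended and robust, other sets of probe sets, other thresholds, and each array left out. The control covariate, list counts under other settings and the element with 1 mismatch were added after seeing the data. Same-numbered vehicle and estradiol arrays did not deviate together (correlations -0.018, 0.028 and 0.016), so the numbers do not pair them. Tested on simulated data with 29094 probe sets, the estradiol comparison found 57.3%, 93.2% and 97% of changes of 0.4, 0.7 and 1 log2, with 7 false among 169 calls.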

Additional observations from a re-analysis of the deposited data

Results flagged for a closer look

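The probe sets left out as presumed controls carried a signal that separated the treatments. Their mean deviation from the average of all 12 arrays was -0.076 ± 0.043 log2 (SD, n = 3) in the vehicle arrays and 0.032 ± 0.036 in the estradiol arrays with non-targeting siRNA, and single estradiol arrays were at -0.003, 0.032 and 0.068. It is given here because these probe sets enter no comparison of the report and lay higher in the estradiol arrays than in the vehicle arrays. With SRC-1 siRNA the vehicle arrays were at -0.024, -0.159 and -0.09 and the estradiol arrays at 0.133, 0.094 and 0.178. When all 33297 probe sets were tested together, limma called 48 of the left-out ones in cells with non-targeting siRNA, with 625 at an unadjusted p under 0.05. Groups of 3 arrays are too small for a check of single arrays that stand apart.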

How the results depend on the processing

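The count of called probe sets with 1 symbol (649, of which 442 higher and 207 lower) moved with the settings: it was 371 (283 and 88) at an adjusted p under 0.01, and 148 (136 and 12) with at least a 1.5-fold change. With the control covariate it was 318 (236 and 82), with a trended and robust variance 914, and without the lowest 40% of probe sets 901. Because the covariate separates the treatments, it also widens the errors, and the cause of the lost calls was not tested. The count of decreases was 129 with the 6 compared arrays alone, where fewer arrays estimate the spread, 328 without the lowest 40% of probe sets, where fewer are tested, and 324 with a trended and robust variance. Leaving out 1 array at a time gave 444 to 636 calls, 330 to 434 higher and 113 to 204 lower. The decreases numbered 118 and 113 without vehicle replicates 1 and 3, and 129 and 123 without estradiol replicates 2 and 3. The count of at least 2-fold changes was 44 to 54 in those fits, against 48. The share of increases among the calls, 68.1%, was 61.5% after a renewed quantile normalization and 73.4% after median centring. With the replicate block the count was 664 (444 and 220), although the numbers do not pair the arrays. For the difference between the siRNAs a trended and robust variance called 2 where the fit as reported called 0. Of 241 named probe sets, 220 of them called, 0 reversed under any of the 24 settings, and 72 kept their call under each. Promoter shares were recomputed with the 250 bases before the start alone, for raised and lowered genes: 30.3% and 25.5% for the single arm, 5.94% and 7.75% for AP-1. The number of arrays sets the limit on small changes, and genes below the lower quartile are not shown to exceed background.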

Other observations

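DUX4, a gene with many near-identical copies, had 12 called probe sets, all higher, at 0.34 to 0.95 log2, several of them with identical values in all arrays, so they are not 12 separate measurements. At the top of the signal range, the called genes with the highest vehicle means included ZBTB38, a zinc finger protein (12.09 to 12.57 log2) and, among decreases, EMP1, an epithelial membrane protein (11.79 to 11.48). Both changes were under 1.5-fold.

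By RefSeq class of gene, 3.49% of 17795 protein-coding probe sets were called, 1.45% of 690 long non-coding RNA probe sets, 3.93% of 178 small nucleolar RNA probe sets and 1.16% of 173 microRNA probe sets. The small nucleolar RNA class holds 7 called probe sets, whereas 8 genes were counted by symbol.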
